A study of Mus musculus with 8 samples.

Results

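The 33 genes described here encode the enzymes of glycolysis, the carriers of glucose and lactate, the kinases that set the flux, the hypoxia sensor with its hydroxylases, and a few genes that hypoxia induces. They were chosen by gene symbol from a fixed list, with no measured value in the rule. The list was made with earlier results of these data known. All 33 have a row among the 23997 genes of the expression table, and all 33 were among the 12565 genes tested. The samples were marrow of C57BL/6 mice transplanted with donor marrow that had been taken after 5-fluorouracil, grown with IL3, IL6 and SCF and transduced. The genes transduced were AML1-ETO and Meis2 in 3 libraries (AE+Meis2), the splice form AML1-ETO9a and Meis2 in 3 (AE9a+Meis2), and AML1-ETO9a by itself in 2 (AE9a). The recipients had been lethally irradiated, and RNA was taken once leukemia had developed, with median latencies of 171, 102 and 138 days in that order. No untransduced or healthy marrow was analysed, so every value below sets leukemic marrow against leukemic marrow. Whole marrow also holds host and normal donor-derived cells, and the labels do not say what share of the cells carried the transduced genes, what promoter drove them, or which libraries share a donor or a transduction. The p-values below therefore measure the spread between these libraries, which may be technical.

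Glycolysis turns glucose into pyruvate in the cytosol, and lactate dehydrogenase turns pyruvate into lactate, which leaves the cell through monocarboxylate transporters. The transcription factor HIF-1 raises many of these genes when oxygen is low. Its alpha subunit is hydroxylated by the EGLN enzymes in normal oxygen and then destroyed, so its activity is set mostly at the protein level, which RNA does not show. Marrow is a tissue of low oxygen, and leukemic as well as normal myeloid cells are known for high glycolytic activity.

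Values are FPKM, fragment counts divided by transcript length and library size, and are listed in the order of the replicate numbers. Read totals are unknown. From the steps between low values, relative depth ran from 12.1% in AE9a replicate 1 and 14.9% in AE+Meis2 replicate 2 to 65.5% in AE9a+Meis2 replicate 1, set against the deepest library, AE9a+Meis2 replicate 2. That estimate is rough. Meis2 was measured at 621, 604 and 1277 FPKM across AE9a+Meis2 and at 6.99 and 13.2 FPKM across AE9a, but at 13.1, 38.2 and 81.5 FPKM across AE+Meis2. Runx1t1, the gene of the ETO part of the fusion, stood at 21.6, 223 and 218 FPKM in AE+Meis2, against 10.3 to 18.0 FPKM across AE9a+Meis2 and 26.8 and 23.4 FPKM across AE9a. Runx1, the gene of the AML1 part, was at 23.1, 42.0 and 31.6 FPKM across AE+Meis2, 27.7, 43.4 and 39.6 FPKM across AE9a+Meis2 and 42.9 and 71.1 FPKM across AE9a. The library labelled AE+Meis2 replicate 1 thus had Meis2 and Runx1t1 near their levels in AE9a and goes against its label. Its Runx1 was the lowest of all libraries and not near AE9a. Results on AE+Meis2 are therefore also given without this library. AE9a+Meis2 replicate 3 and AE9a replicate 1 had values above 0 for 84.2% and 72.1% of 1536 olfactory, vomeronasal, keratin-associated and beta-defensin genes, against 3.32% to 6.58% in the other libraries. The white-cell gene Ptprc (39.4 to 298 FPKM) and the myeloid gene Mpo (117 to 2484 FPKM) were present in every library.

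The glycolytic enzymes were among the most abundant transcripts of these marrows. Averaged over the 8 libraries, Gapdh had a mean of 1124 FPKM, Ldha 697 FPKM, Pkm 601 FPKM and Aldoa 591 FPKM, and the means of these 4 genes lay at or above the 99.16 percentile of all genes in the table. Pgk1, Gpi1, Eno1, Tpi1 and Pgam1 had means of 374, 372, 340, 313 and 278 FPKM, with neighbours in this order overlapping over the libraries. The means of the transporters ran from 13.6 FPKM for Slc16a1 to 77.1 FPKM for Slc2a3, and those of the hypoxia-induced genes from 3.05 FPKM for Car9 to 52.1 FPKM for Bnip3. Eno2, the enolase typical of neurons, had the lowest mean at 1.04 FPKM. No member was at 0 in any library.

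Spread within a group differed widely among the members. Aldoa and Pfkp had the smallest within-group SD of log2 FPKM, 0.17 and 0.18, and Ldhb and Hk3 the largest, 1.82 and 1.81. The highest library exceeded the lowest 1.58-fold for Aldoa and 36.9-fold for Hk3, which is known from myeloid cells. AE+Meis2, which includes the library that goes against its label, had the largest SD of the 3 groups for 24 of the 33 members. The share over all genes was not computed. Over the whole table, AE+Meis2 replicates 2 and 3 correlated least of all library pairs (0.88). Whether the spread of these members there exceeds that of other genes was not tested.

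**Figure D1:**
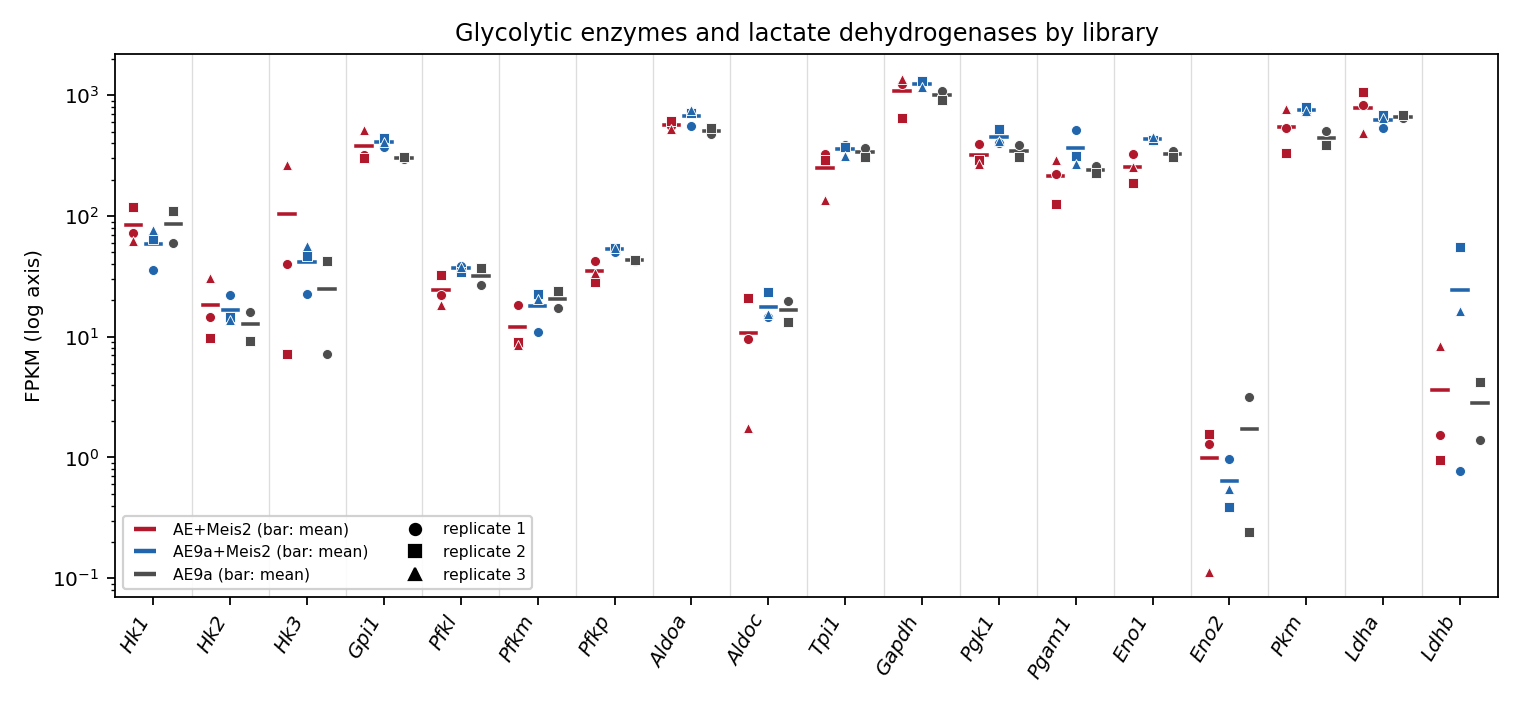
FPKM of the 18 glycolytic enzyme and lactate dehydrogenase genes on a log axis, 1 point per library, coloured by group, with bars at the group means. Eno1, Pkm and Gpi1 of AE9a+Meis2 lie above both AE9a libraries, while Hk3 and Ldhb spread over more than a factor of 10 within a group.

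None of the 33 genes passed the test in any of the 3 comparisons. The test was limma on log2(FPKM + 1) over all 12565 genes, with Benjamini-Hochberg adjusted p under 0.05. Few genes of the whole table passed either: 0.0478% between AE9a+Meis2 and AE9a, 0.0398% between both groups with Meis2, and 0.0318% between AE+Meis2 and AE9a. The comparisons share groups of libraries, so they are given side by side and not as independent results.

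AE9a+Meis2 and AE9a differ by Meis2, in median latency (102 against 138 days) and in the measured level of Runx1t1. Runx1t1 was lower in every AE9a+Meis2 library than in AE9a (-0.92 ± 0.94, limma). The effects of these differences cannot be told apart. Between the groups, 21 of the 33 members had a higher mean in AE9a+Meis2 and 12 a lower mean, with a median difference of 0.30 on the log2 scale. The median of all genes tested was -0.0011, and 49.8% of them were higher. Without AE9a replicate 2 the members' median was 0.095, or 0.038 relative to that of all genes. At an unadjusted p under 0.05, 1 member was higher, Egln3, and 0 were lower, where 1.93% and 1.13% of all genes tested were. All 3 AE9a+Meis2 libraries lay above both AE9a libraries for 9 members, 8 of them glycolytic enzymes, and below both for 0, where 13.1% and 10.7% of all genes did so. That count changed with the scaling of libraries: after quantile normalization it was 2, Egln3 and Gapdh, where 11.3% of all genes lay above without overlap, and with small RNA entries removed and the rest rescaled it was 6, against 8.54% of all genes. Leaving out a library makes overlap rarer for every gene: without AE9a replicate 1, 17 members and 23.1% of all genes lay above without overlap. With AE9a replicate 1 and AE9a+Meis2 replicate 3 both left out, which leaves 1 AE9a library, 19 members were above and 6 below without overlap, where 36.6% and 38.8% of all genes were.

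AE+Meis2 and AE9a+Meis2 differ by the labelled form of AML1-ETO, and also in the measured level of Meis2, which was lower in every AE+Meis2 library (-4.45 ± 0.65, limma, adjusted p = 0.14). Median latency differed too, at 171 against 102 days. These differences cannot be told apart in this comparison. Of the 33 genes, 11 members had a higher and 22 a lower mean, with a median of -0.28 beside 0.043 for all genes tested. At an unadjusted p under 0.05, 0 members were higher and 3 lower, Eno1, Pfkp and Pfkl, where 3.1% and 4.05% of all genes tested were. These 3 and Pgk1 were lower in every AE+Meis2 library than in any AE9a+Meis2 library, and 0 members were higher in this way, where 6.49% and 7% of all genes were lower and higher without overlap. Without the library labelled AE+Meis2 replicate 1, 6 members had an unadjusted p under 0.05 and lower values, 7 were lower without overlap, and the median was -0.41, where 5.01% of all genes were lower at that p and 11.9% without overlap. Without AE+Meis2 replicate 2 the median was -0.088. With all libraries, quantile normalization gave 6 members lower without overlap and 6.8% of all genes, and removing small RNA entries gave 9 members and 12.4% of all genes. Markers of other cells moved with this comparison. Of 9 tested monocyte and macrophage genes, 8 were lower in AE+Meis2 by their means, with a median of -0.83, although their sums overlapped (935.5 to 10263 FPKM against 3068 to 6399.7 FPKM). All 4 pan-leukocyte genes were lower by their means, with sums of 761 to 2327 FPKM against 1378 to 1803 FPKM. The 5 tested stromal and endothelial genes and the 5 megakaryocyte genes were higher by their means, with sums over the listed genes of 59.1 to 99.8 FPKM against 27.6 to 51.5 FPKM and of 15.9 to 364 FPKM against 17.2 to 23.2 FPKM. By their means, 9 of 10 tested neutrophil, 7 of 8 T and cytotoxic, 5 of 8 immature myeloid and 4 of 6 B-lineage genes were higher. Of 12 erythroid genes 7 were lower, and of 9 tested immediate early and handling genes 7 were lower. The part of all these markers in the members' values was not tested.

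Relative to AE9a, AE+Meis2 had 14 members with a higher and 19 with a lower mean, and a median of -0.12 beside 0.055 for all genes tested. The labelled form of AML1-ETO, Meis2 and median latency (171 against 138 days) all differ here and cannot be told apart. At an unadjusted p under 0.05, 1 member was higher, again Egln3, and 0 were lower, where 2.95% and 3.03% of all genes tested were. Egln3 was the 1 member higher without overlap and Pfkp the 1 lower, where 9.96% and 8.66% of all genes were. Without the library labelled AE+Meis2 replicate 1, 6 members were lower without overlap: Eno1, Pfkm, Pfkp, Pgk1, Slc2a1 and Tpi1. Of all genes 14.9% were then lower without overlap, so the members' share is near the background. With all libraries, 4 were after quantile normalization, against 9.88% of all genes, and after removal of small RNA entries 6 were, against 20.6%, and Egln3 overlapped. The median was 0.077 without AE+Meis2 replicate 2.

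**Figure D2:**
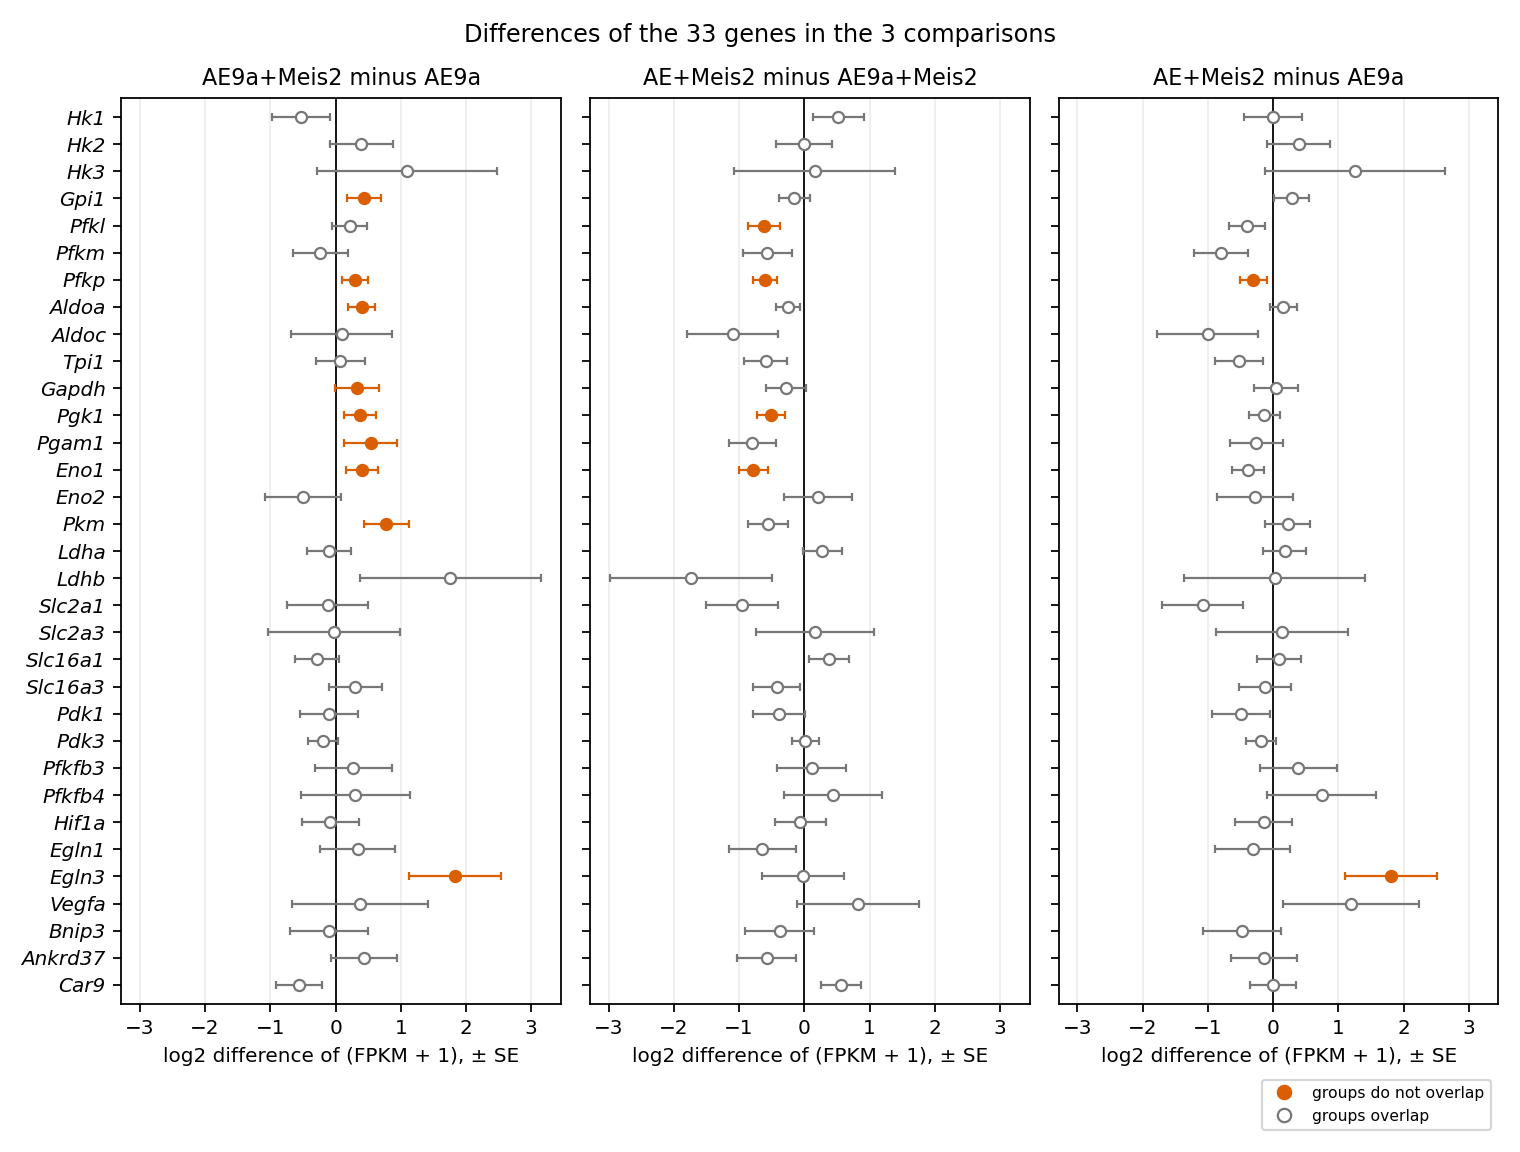
Difference in mean log2(FPKM + 1) of each of the 33 genes in the 3 comparisons, with its standard error from limma. Filled points mark genes whose libraries do not overlap between the groups. Most enzymes lie right of 0 in the first panel and left of 0 in the middle panel, and no gene passed the adjusted threshold.

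Promoters are shown for the members with an unadjusted limma p under 0.05 in a comparison, Egln3, Eno1, Pfkp and Pfkl, and for Slc2a1. None of them passed the adjusted threshold. Slc2a1 had the smallest adjusted p of any member over the settings tried, which came only without AE+Meis2 replicate 1. Each sequence is the 250 bases before an annotated RefSeq transcript start in GRCm38.p6 (mm10), 5′ to 3′ on the gene's strand. Capitals mark the core letters of the element that HIF binds, ACGTG or GCGTG on either strand (CACGT or CACGC on the printed strand), with overlapping matches counted as 1. Eno1 has several annotated starts, of which a pair is shown.
Egln3, chr12:54203875-54204124, minus strand: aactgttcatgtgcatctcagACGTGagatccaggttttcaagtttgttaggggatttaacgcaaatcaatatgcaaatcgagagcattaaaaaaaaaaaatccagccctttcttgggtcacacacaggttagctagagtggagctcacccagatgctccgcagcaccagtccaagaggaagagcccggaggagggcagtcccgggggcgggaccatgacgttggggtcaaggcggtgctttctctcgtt
Eno1, chr4:150236458-150236707, plus strand: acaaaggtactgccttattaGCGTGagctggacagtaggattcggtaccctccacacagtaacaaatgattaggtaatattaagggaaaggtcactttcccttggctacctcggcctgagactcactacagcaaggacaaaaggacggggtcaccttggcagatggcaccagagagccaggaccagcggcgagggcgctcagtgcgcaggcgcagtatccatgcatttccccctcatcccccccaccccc
Eno1, chr4:150236947-150237196, plus strand: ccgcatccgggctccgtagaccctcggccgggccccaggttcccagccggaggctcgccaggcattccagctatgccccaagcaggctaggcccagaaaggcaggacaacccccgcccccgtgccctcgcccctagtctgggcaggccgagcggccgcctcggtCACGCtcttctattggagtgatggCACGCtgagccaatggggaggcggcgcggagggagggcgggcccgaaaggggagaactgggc
Pfkp, chr13:6648772-6649021, minus strand: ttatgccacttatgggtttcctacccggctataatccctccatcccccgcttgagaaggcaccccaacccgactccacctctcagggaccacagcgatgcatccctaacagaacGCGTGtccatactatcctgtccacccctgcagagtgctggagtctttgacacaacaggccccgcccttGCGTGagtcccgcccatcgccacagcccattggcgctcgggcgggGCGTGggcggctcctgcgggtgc
Pfkl, chr10:78009808-78010057, minus strand: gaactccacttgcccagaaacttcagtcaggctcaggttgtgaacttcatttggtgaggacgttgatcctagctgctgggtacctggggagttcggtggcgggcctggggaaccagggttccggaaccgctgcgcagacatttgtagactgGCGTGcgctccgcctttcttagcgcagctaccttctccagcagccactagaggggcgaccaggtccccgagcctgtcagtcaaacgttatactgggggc
Slc2a1, chr4:119108495-119108744, plus strand: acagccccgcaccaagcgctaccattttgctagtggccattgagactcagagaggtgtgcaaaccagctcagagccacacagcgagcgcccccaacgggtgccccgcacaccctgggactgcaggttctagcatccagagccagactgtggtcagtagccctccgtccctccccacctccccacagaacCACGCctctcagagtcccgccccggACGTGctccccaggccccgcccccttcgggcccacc

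Of the 32 members with a promoter entry (Slc2a3 had none), 29 held the core in at least 1 window, or 90.6%, against 41.5% of 27025 genes with an entry and 60.5% of the 9386 tested genes with one. Only Gpi1, Tpi1 and Eno2 held none. For ACGTG alone the shares were 62.5% of members, 18.5% of all genes and 24.9% of tested genes. GC content moves with these shares: the median was 60.4% over the members' windows, 52.4% over all windows and 59.2% over those of tested genes, and its part in the difference was not tested. Several members are textbook HIF targets, so the list was not independent of this element. A match of these letters does not show that a factor was bound.

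Among the carriers, Slc2a1, the glucose transporter GLUT1 (mm10 chr4:119108745-119137330), differed more between the AE+Meis2 libraries than between AE9a+Meis2 and AE9a. It stood at 86.8, 19.2 and 17.8 FPKM across AE+Meis2, 64.6, 61.4 and 58.3 FPKM across AE9a+Meis2 and 71.8 and 62.4 FPKM across AE9a. AE+Meis2 replicates 2 and 3 were the lowest of all 8 libraries, while the library labelled AE+Meis2 replicate 1 was the highest. With all libraries the difference of AE+Meis2 was -0.96 ± 0.56 (SE) from AE9a+Meis2 and -1.08 ± 0.62 from AE9a, neither past the threshold in limma (adjusted p = 0.76 and 0.95). Without the library that goes against its label these became -1.68 and -1.80, with unadjusted limma p of 5.77e-05 and 6.51e-05 and adjusted p of 0.072 and 0.071, still over the threshold. Over all settings tried, the adjusted p of both differences reached up to 1.0.

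Slc2a3, the high-affinity transporter GLUT3, was measured at 98.2, 18.1 and 154 FPKM across AE+Meis2, 24.4, 64.4 and 124.5 FPKM across AE9a+Meis2 and 36.4 and 96.8 FPKM across AE9a. Its lowest and highest library were both AE+Meis2, and all 3 groups overlapped. Its share in the sum of both glucose transporters was 89.7% in AE+Meis2 replicate 3 and between 27.4% and 68.1% in the other libraries. Slc16a3, the lactate exporter MCT4, stood at 41.6, 26.2 and 69.5 FPKM across AE+Meis2, 46.2, 52.4 and 77.4 FPKM across AE9a+Meis2 and 46.4 and 46.1 FPKM across AE9a. It held 66.5% or more of the lactate transporter sum in every library. Slc16a1, the carrier MCT1, ranged only from 9.54 to 20.9 FPKM.

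**Figure D3:**
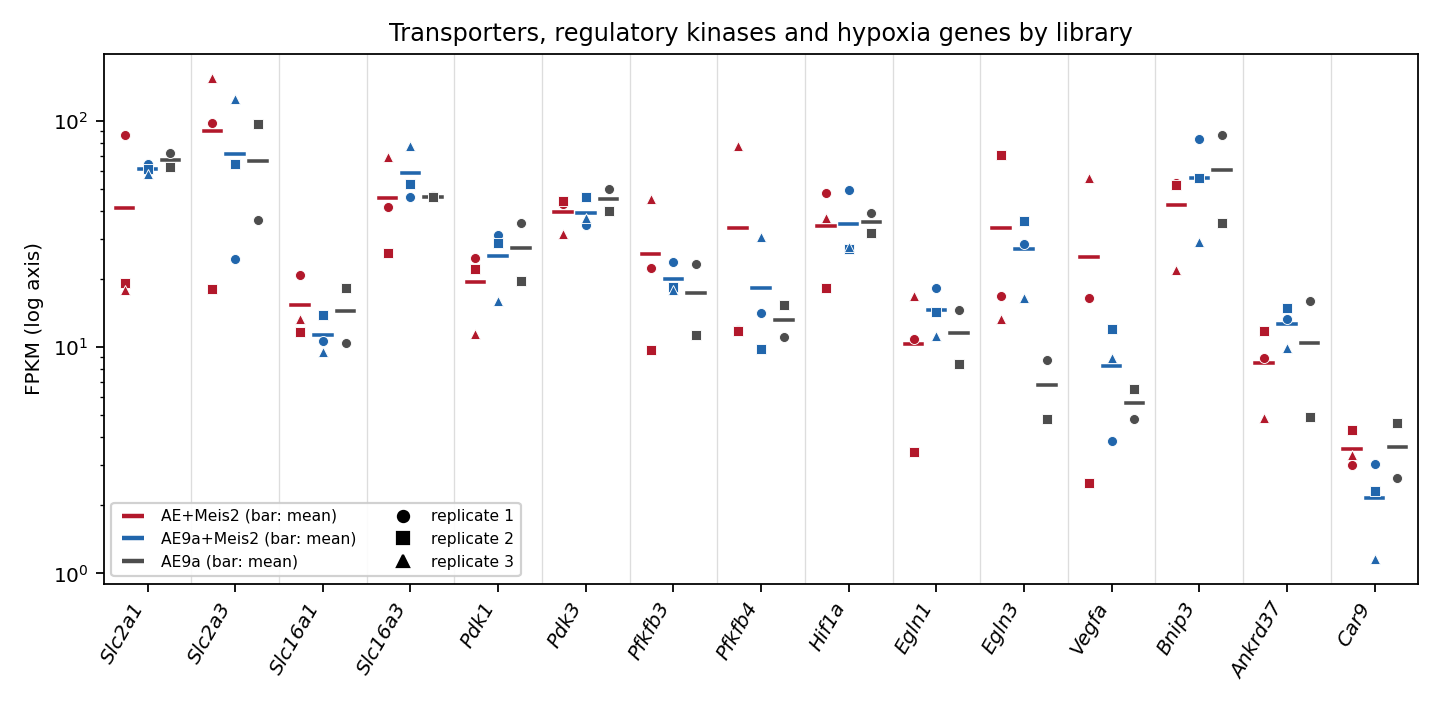
FPKM of the 4 transporters, 4 kinases and 7 HIF and hypoxia genes on a log axis, 1 point per library, with bars at the group means. Slc2a1 of AE+Meis2 lies at 17.8 and 19.2 FPKM in 2 libraries and at 86.8 FPKM in the third, and the AE9a libraries of Egln3 lie below all others.

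The hexokinases trap glucose in the cell as glucose-6-phosphate. Hk1 was the most abundant hexokinase in 7 of the 8 libraries, at 71.7, 119 and 62.4 FPKM across AE+Meis2, 35.5, 64.6 and 77.0 FPKM across AE9a+Meis2 and 59.7 and 111 FPKM across AE9a. The exception was AE+Meis2 replicate 3, where Hk3 stood at 264 FPKM and took 73.9% of the hexokinase sum. In the other libraries Hk3 stood between 7.15 and 56.6 FPKM, and its share was 31.7% and 5.32% in the rest of AE+Meis2, 28.0%, 37.2% and 38.4% in AE9a+Meis2 and 8.62% and 26.1% in AE9a. The Hk3 share was higher in every AE9a+Meis2 library than in either AE9a library (exact two-sided permutation p = 0.1, the smallest this design allows, adjusted p = 0.9 over 30 share tests). Hk2, which is inducible by HIF, ranged from 9.25 to 30.6 FPKM with overlapping groups.

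AE+Meis2 replicate 3 also had the most RNA of maturing neutrophils, but not of these alone. That library also had the highest sums of monocyte and macrophage (10263 FPKM), immature myeloid (5921 FPKM) and pan-leukocyte genes (2327 FPKM). The same held for T and cytotoxic genes (125 FPKM) and immediate early and handling genes (2520 FPKM). Its erythroid sum, 350 FPKM, and its megakaryocyte sum, 15.9 FPKM, were the lowest. The 10 neutrophil marker genes in the table summed to 190870 FPKM there, against 16383 in the library labelled AE+Meis2 replicate 1, 1813 in AE+Meis2 replicate 2 and 2343 to 61045 elsewhere. S100a9, 1 of those markers, is listed at 0 in all 3 AE+Meis2 libraries, although S100a8 stood at 131098 FPKM in replicate 3, which can be a failed estimate, so the sums of that group lack this gene. In the same library Hk2, Hk3, Gpi1, Gapdh, Slc2a3, Pfkfb3, Pfkfb4 and Vegfa were higher than in any other of the 8, and Pfkl, Pfkm, Aldoc, Tpi1, Pgk1, Eno2, Ldha, Slc2a1, Pdk1, Pdk3, Bnip3 and Ankrd37 were lower than in any other. AE+Meis2 replicate 2 had the highest sum of megakaryocyte markers, 364 FPKM against 15.9 to 103 FPKM elsewhere, and the highest Hk1, Ldha and Egln3. Kit was also highest there (224 FPKM). The 8 immature myeloid genes, Kit among them, summed to only 644 FPKM there, against 547 to 5921 FPKM elsewhere. In AE+Meis2 replicate 2 the values of Pfkp, Gapdh, Pgam1, Eno1, Pkm, Slc2a3, Slc16a3, Pfkfb3, Hif1a, Egln1 and Vegfa were the lowest of the 8. That library also had the highest share of small RNA entries, 37.9% of its summed FPKM, and a relative depth of 14.9%. The part of cell composition, small RNA or depth in these values was not tested. In whole marrow, more cells of a type cannot be told apart from more RNA per cell.

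**Figure D4:**
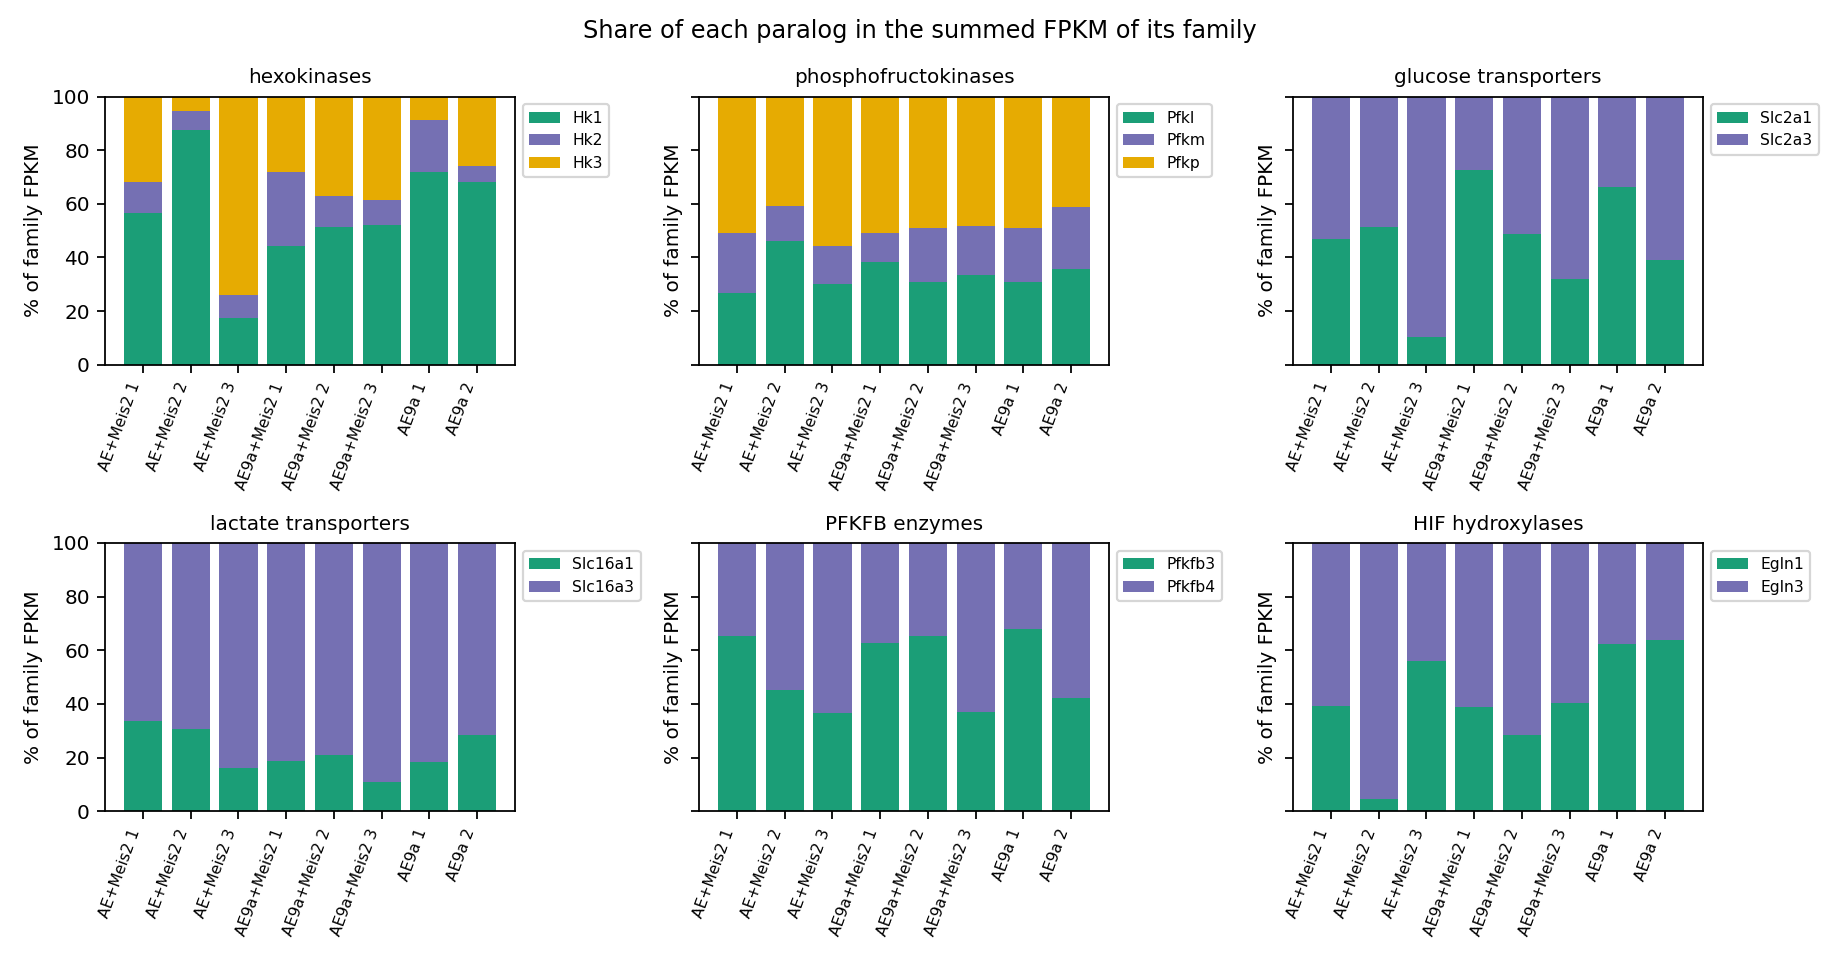
Share of each paralog in the summed FPKM of its family in each library, for 6 families. Hk3 and Slc2a3 dominate in AE+Meis2 replicate 3, and the Egln3 share is below 40% only in the AE9a libraries.

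Gpi1, which makes fructose-6-phosphate, stood at 318, 302 and 519 FPKM across AE+Meis2, 373, 444 and 413 FPKM across AE9a+Meis2 and 296 and 308 FPKM across AE9a. All AE9a+Meis2 libraries were above both AE9a libraries, a difference of 0.44 ± 0.26 (limma, adjusted p = 1.0).

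The phosphofructokinases catalyse the committed step. Pfkp, the platelet form (chr13:6579874-6649060), stood at 42.4, 28.7 and 34.0 FPKM across AE+Meis2, 50.6, 54.3 and 54.5 FPKM across AE9a+Meis2 and 42.6 and 43.2 FPKM across AE9a. The groups lay in the order AE+Meis2, AE9a, AE9a+Meis2 with no overlap, although the highest AE+Meis2 and the lowest AE9a library differed by less than 1 FPKM. AE+Meis2 was below AE9a+Meis2 by a log2 difference of -0.60 ± 0.18 (limma, unadjusted p = 0.012, adjusted p = 0.57), and AE9a+Meis2 above AE9a by 0.30 ± 0.20 (adjusted p = 1.0). AE+Meis2 differed from AE9a by -0.30 ± 0.20 (limma, adjusted p = 0.95). With the library labelled AE+Meis2 replicate 1 left out, the first difference was -0.75.

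Pfkl, the liver form (chr10:77986947-78009807), stood at 22.2, 32.3 and 18.4 FPKM across AE+Meis2, 38.2, 34.4 and 37.9 FPKM across AE9a+Meis2 and 26.7 and 37.3 FPKM across AE9a. AE+Meis2 was below AE9a+Meis2 without overlap, by -0.62 ± 0.24 (limma, unadjusted p = 0.038, adjusted p = 0.68). That unadjusted p was 0.094 without the library labelled AE+Meis2 replicate 1. Pfkm, the muscle form, was at 18.4, 9.06 and 8.58 FPKM across AE+Meis2, 11.0, 22.5 and 20.6 FPKM across AE9a+Meis2 and 17.4 and 24.1 FPKM across AE9a. AE+Meis2 replicates 2 and 3 were its lowest libraries, and the difference from AE9a was -0.80 ± 0.42 (limma, adjusted p = 0.94). The genes Pfkp and Pfkm overlap Pitrm1 and Senp1 on the genome, and the library kit does not mark strand, so reads in the shared stretch cannot be assigned by strand.

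Aldolase splits the sugar into a pair of triose phosphates, and triose phosphate isomerase converts one into the other. Aldoa stood at 557, 611 and 522 FPKM across AE+Meis2, 557, 714 and 753 FPKM across AE9a+Meis2 and 476 and 536 FPKM across AE9a. AE9a+Meis2 exceeded AE9a by 0.40 ± 0.21 (limma, adjusted p = 1.0), without overlap. Aldoc, the brain form, was at 1.75 to 23.4 FPKM and held at most 4.00% of the aldolase sum. Tpi1 stood at 326, 292 and 136 FPKM across AE+Meis2, 385, 369.5 and 316 FPKM across AE9a+Meis2 and 368 and 309.6 FPKM across AE9a, with AE+Meis2 replicate 3 lowest, and its groups overlapped in all 3 comparisons.

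Gapdh, which starts the energy-yielding part of the pathway, stood at 1229, 642 and 1370 FPKM across AE+Meis2, 1268, 1309 and 1174 FPKM across AE9a+Meis2 and 1087 and 912 FPKM across AE9a. It is often used as a reference gene, and the highest of these libraries exceeded the lowest 2.13-fold. AE9a+Meis2 was above AE9a without overlap, by 0.33 ± 0.34 (limma, adjusted p = 1.0). Pgk1, which makes the first ATP of the pathway, stood at 393, 289 and 270.5 FPKM across AE+Meis2, 401, 526 and 418 FPKM across AE9a+Meis2 and 384 and 308 FPKM across AE9a. AE9a+Meis2 was the highest group without overlap, by 0.37 ± 0.24 over AE9a (limma, adjusted p = 1.0), and AE+Meis2 differed from it by -0.51 ± 0.22 (adjusted p = 0.70). Pgam1 stood at 222, 127 and 294 FPKM across AE+Meis2, 515, 312 and 271 FPKM across AE9a+Meis2 and 258 and 227 FPKM across AE9a. Its difference of AE+Meis2 from AE9a+Meis2 was -0.80 ± 0.36 (limma, adjusted p = 0.72), with the groups overlapping, and that of AE9a+Meis2 from AE9a was 0.54 ± 0.41 (adjusted p = 1.0), without overlap.

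Eno1, alpha-enolase (chr4:150236708-150248879), had the smallest p of all members between AE+Meis2 and AE9a+Meis2. Its values were 325, 189 and 255 FPKM across AE+Meis2, 416, 430 and 451 FPKM across AE9a+Meis2 and 347 and 307 FPKM across AE9a. AE9a+Meis2 was the highest group without overlap, by 0.40 ± 0.25 over AE9a (limma, adjusted p = 1.0), while AE+Meis2 and AE9a overlapped (-0.38 ± 0.25, adjusted p = 0.95). The difference of AE+Meis2 from AE9a+Meis2 was -0.79 ± 0.22, a 0.58-fold level on the log2(FPKM + 1) scale (95% interval -1.30 to -0.27, limma, unadjusted p = 0.0087, adjusted p = 0.54). Without the library labelled AE+Meis2 replicate 1 it was -0.97, and the adjusted p over all settings ran from 0.28 to 1.0. Eno1b, a near-identical copy listed separately, stood at 72.7, 60.9 and 56.1 FPKM across AE+Meis2, 91.3, 103.5 and 115 FPKM across AE9a+Meis2 and 84.2 and 74.1 FPKM across AE9a. The groups take the same order there, but reads of the pair may have been split between both rows, so the copy is not separate evidence and the level of Eno1 is uncertain. Eno2 stood at 1.31, 1.57 and 0.11 FPKM across AE+Meis2, 0.97, 0.39 and 0.55 FPKM across AE9a+Meis2 and 3.20 and 0.24 FPKM across AE9a, and held at most 0.912% of the enolase sum.

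Pkm, pyruvate kinase, stood at 536, 330 and 774 FPKM across AE+Meis2, at 729.6, 801 and 747 FPKM across AE9a+Meis2 and at 502 and 389 FPKM across AE9a. AE9a+Meis2 exceeded AE9a without overlap by 0.78 ± 0.35, a 1.72-fold difference (limma, unadjusted p = 0.059, adjusted p = 1.0). The file gives 1 value per gene, so the M1 and M2 splice forms of Pkm cannot be told apart here. Ldha, which makes lactate, stood at 834, 1057 and 483 FPKM across AE+Meis2, 536, 686 and 650.1 FPKM across AE9a+Meis2 and 649 and 684 FPKM across AE9a, with both extremes in AE+Meis2. It held 92.5% or more of the lactate dehydrogenase sum in every library. Ldhb, the heart form, was at 0.77 to 8.46 FPKM in 6 libraries but at 55.4 and 16.4 FPKM in AE9a+Meis2 replicates 2 and 3, so its difference from AE9a, 1.76 ± 1.39, has an interval from -1.49 to 5.01.

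Summed over the 18 enzyme genes, the level was 4963, 4068 and 5052 FPKM in AE+Meis2, 5378, 5909.7 and 5484 FPKM across AE9a+Meis2 and 4561 and 4266 FPKM across AE9a. AE9a+Meis2 was above both other groups in every library. As a share of FPKM outside small RNA entries the enzymes took 0.993% to 1.11% in AE9a+Meis2, 0.973% and 0.819% in AE9a, and 0.881%, 0.760% and 0.585% in AE+Meis2. AE9a+Meis2 was again the highest in every library, while AE+Meis2 and AE9a, which overlapped on both scales, changed the order of their means. Other markers moved with this contrast: the 9 monocyte and macrophage genes in the table summed to 3068 to 6399.7 FPKM in AE9a+Meis2 and to 1712 and 1853 FPKM in AE9a. The 11 immediate early and handling genes summed to 1006 to 1689 FPKM against 100.2 and 328 FPKM, and the 10 stromal and endothelial genes to 27.6 to 51.5 FPKM against 97.7 and 117 FPKM. The 4 pan-leukocyte genes summed to 1378 to 1803 FPKM against 1019 and 1260 FPKM, and the 5 megakaryocyte genes to 17.2 to 23.2 FPKM against 24.7 and 33.04 FPKM. No gene of these 5 lists that the table holds was at 0 in any library, and their part in the enzyme levels was not tested. These lists were named because their sums did not overlap between AE9a+Meis2 and AE9a. The sums of the other marker lists overlapped. Neutrophil genes summed to 2343 to 61045 FPKM against 7993 and 31821 FPKM, and erythroid genes to 777 to 1942 FPKM against 1108 and 2627 FPKM. Immature myeloid genes summed to 641 to 3578.5 FPKM against 547 and 1335 FPKM. B-lineage and T and cytotoxic genes overlapped too. Between AE9a+Meis2 replicate 3 and AE9a replicate 1, the libraries with the most olfactory, vomeronasal, keratin-associated and beta-defensin genes above 0, and between the remaining libraries of the same groups, 12 members were higher in AE9a+Meis2 both times, 2 were lower both times and 19 changed sign. The 9 members without overlap had to be among the 12, so their place there adds nothing. The same counts were not taken over all genes, so these have no background to be read against.

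The kinases that set the flux overlapped between groups throughout. Pdk1 and Pdk3, which switch off pyruvate dehydrogenase and so keep pyruvate from the mitochondria, ranged from 11.4 to 35.2 FPKM and from 31.8 to 50.2 FPKM. Pdk3 was the more abundant of the pair in every library, at 43.1, 44.2 and 31.8 FPKM across AE+Meis2, 34.6, 45.9 and 37.1 FPKM across AE9a+Meis2 and 50.2 and 39.8 FPKM across AE9a. Pfkfb3 and Pfkfb4 make and break the activator of phosphofructokinase. Pfkfb3 stood at 22.4, 9.73 and 45.1 FPKM across AE+Meis2, 23.8, 18.4 and 17.9 FPKM across AE9a+Meis2 and 23.4 and 11.3 FPKM across AE9a, again with both extremes in AE+Meis2. Pfkfb4 was at 77.6 FPKM in AE+Meis2 replicate 3 and at 9.80 to 30.7 FPKM in the other libraries. The share of Pfkfb4 in the pair had means of 50.9%, 45.1% and 44.9% in AE+Meis2, AE9a+Meis2 and AE9a.

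Hif1a, the oxygen-regulated subunit, showed no order of groups: it stood at 47.7, 18.2 and 37.3 FPKM across AE+Meis2, 49.7, 27.1 and 27.8 FPKM across AE9a+Meis2 and 39.2 and 32.1 FPKM across AE9a. The difference of AE9a+Meis2 from AE9a was -0.08 ± 0.44, with an interval from -1.11 to 0.95, which covers differences in both directions. Egln1, the main HIF prolyl hydroxylase, ranged from 3.42 FPKM in AE+Meis2 replicate 2 to 18.3 FPKM in AE9a+Meis2 replicate 1.

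Egln3, a hydroxylase that HIF itself induces (chr12:54178981-54203874), was the member with the smallest p in both comparisons with AE9a. It stood at 16.8, 70.7 and 13.3 FPKM across AE+Meis2, 28.6, 36.0 and 16.5 FPKM across AE9a+Meis2 and 8.79 and 4.79 FPKM across AE9a. Both AE9a libraries were below all 6 others, and both groups with Meis2 overlapped. The difference from AE9a was 1.83 ± 0.70 for AE9a+Meis2 (95% interval 0.18 to 3.48, 3.56-fold, limma, unadjusted p = 0.034, adjusted p = 1.0) and 1.81 ± 0.70 for AE+Meis2 (3.50-fold, unadjusted p = 0.036, adjusted p = 0.79). Both differences share the same 2 AE9a libraries. With the library labelled AE+Meis2 replicate 1 left out, the second was 2.09, and over the settings tried the first lay between 1.41 and 2.51 with adjusted p from 0.38 to 1.0. The share of Egln3 in the sum with Egln1 was 60.7%, 95.4% and 44.2% in AE+Meis2, 61.0%, 71.6% and 59.5% in AE9a+Meis2 and 37.5% and 36.3% in AE9a. Shares within a library do not depend on scaling between libraries, and this share was also lowest in both AE9a libraries (exact two-sided permutation p = 0.1 for AE9a+Meis2 and 0.2 for AE+Meis2, adjusted p = 0.9 for both).

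Of the hypoxia-induced genes, Vegfa, the angiogenic growth factor, stood at 16.4, 2.52 and 56.0 FPKM across AE+Meis2, 3.85, 11.99 and 8.99 FPKM across AE9a+Meis2 and 4.81 and 6.52 FPKM across AE9a, so AE+Meis2 held both the lowest and the highest library. Bnip3, a mitophagy receptor, was at 53.2, 51.9 and 22.0 FPKM across AE+Meis2, 83.3, 55.8 and 29.3 FPKM across AE9a+Meis2 and 86.2 and 35.4 FPKM across AE9a, a wide spread within each group. Ankrd37, an ankyrin repeat gene induced by HIF, ranged from 4.88 to 16.0 FPKM. Car9, a carbonic anhydrase that is a widely used marker of hypoxia, stayed low at 1.15 to 4.62 FPKM in all 8 libraries. The 4 genes did not take a common direction: 2 of 4 were higher in AE9a+Meis2 than in AE9a, 2 of 4 in AE+Meis2 than in AE9a+Meis2 and 1 of 4 in AE+Meis2 than in AE9a, and the groups overlapped for each. The reads of Ankrd37 and Car9 may include those of overlapping genes (Ufsp2, Arhgef39 and Tpm2), and likewise Slc16a3 with Csnk1d, Tpi1 with Spsb2 and Hk3 with Unc5a.

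Wider lists around these 33 genes gave 0 genes past the adjusted threshold as well. Of 29 tested among 38 other glycolysis and pyruvate genes, AE9a+Meis2 had 13 higher and 16 lower than AE9a (median -0.027), and AE+Meis2 had 14 higher and 15 lower than AE9a+Meis2 and also than AE9a. Hkdc1, a hexokinase-like enzyme, stood at 0.31, 0.032 and 0.036 FPKM across AE+Meis2, 0.48, 0.51 and 0.67 FPKM across AE9a+Meis2 and 2.30 and 3.24 FPKM across AE9a. Only its AE9a values reached the FPKM of 1 that the filter asks for, so its being highest there was partly fixed beforehand. Its other values were all under 1 FPKM. The difference from AE9a was -1.27 ± 0.26 in AE9a+Meis2 (limma, adjusted p = 0.73) and -1.74 ± 0.26 in AE+Meis2 (adjusted p = 0.16). Gpd2, the mitochondrial glycerol-3-phosphate dehydrogenase, was lowest in both AE9a libraries, at 4.63 and 6.46 FPKM. It stood at 9.20, 9.88 and 9.27 FPKM in AE9a+Meis2 and 8.88, 14.8 and 15.8 FPKM in AE+Meis2 (difference of AE+Meis2 from AE9a 1.09 ± 0.29, limma, adjusted p = 0.53). Of the 29 tested genes, 3 were higher and 6 lower than AE9a without overlap in AE9a+Meis2, where 13.1% and 10.7% of all genes were. In AE+Meis2 these were 3 and 3, against 9.96% and 8.66%.

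Among 19 pentose phosphate and glycogen genes, 15 were higher in AE9a+Meis2 than in AE9a, 12 in AE+Meis2 than in AE9a+Meis2 and 17 in AE+Meis2 than in AE9a, with medians of 0.21, 0.11 and 0.37 and 0 at an unadjusted p under 0.05. The library AE+Meis2 replicate 3 weighs on these means: G6pdx, the entry enzyme of the pentose phosphate pathway, stood at 427 FPKM there and at 49.2 to 123 FPKM in the other 7 libraries. Pygl, glycogen phosphorylase, was at 519 FPKM there and at 56.7 to 160.5 FPKM elsewhere. That same library had the highest sums of neutrophil, monocyte and macrophage, immature myeloid, pan-leukocyte, T and cytotoxic, and immediate early and handling genes. The part of these markers in G6pdx and Pygl was not tested.

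Of 12 tested among 13 other HIF pathway genes, 6 were higher in AE9a+Meis2 than in AE9a, 5 in AE+Meis2 than in AE9a+Meis2 and 7 in AE+Meis2 than in AE9a. Tceb2 (elongin B), of the complex that marks HIF for destruction, had 157, 93.1 and 145 FPKM across AE+Meis2 and 162, 173 and 212 FPKM across AE9a+Meis2, a difference of -0.49 ± 0.24 (limma, adjusted p = 0.73). Hif3a stood at 46.8 FPKM in AE+Meis2 replicate 2 and at 1.44 to 7.25 FPKM elsewhere. Of 25 tested among 29 other genes that hypoxia is known to raise, 14 were higher in the first comparison, 14 in the second and 16 in the third, with medians of 0.069, 0.076 and 0.27. Ddit4, an inhibitor of mTORC1 signalling, stood at 86.9, 240.4 and 59.6 FPKM across AE+Meis2 and at 53.8 and 45.5 FPKM across AE9a (1.11 ± 0.56, limma, adjusted p = 0.92). Ndrg1 stood at 39.9, 12.2 and 43.6 FPKM across AE+Meis2 and at 47.5, 55.6 and 45.5 FPKM across AE9a+Meis2 (-0.80 ± 0.53, adjusted p = 0.78). Ddit4 was thus higher in every AE+Meis2 library than in AE9a, and Ndrg1 lower than in AE9a+Meis2, without passing the test. Each was the 1 gene of the 25 without overlap in that direction, where 9.96% and 6.49% of all genes were. Neither count is above that background.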

How the data were processed

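RNA libraries (TruSeq RNA version 2, which does not mark strand) from 8 leukemic marrows were grouped by their titles. The authors deposited 1 table of FPKM. TopHat, Cufflinks and Cuffdiff and the build mm10 are named per the submitters' processing notes; tool versions, run settings, gene annotation and scaling were not given in the sources used here. Small RNA entries held 8.66% to 37.9% of the summed FPKM of a library, which can shift every other gene.

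FPKM were taken to log2(FPKM + 1), a scale that understates differences of low genes. The 12565 genes that reached an FPKM of 1 in 2 or more libraries entered limma 3.58.1 in R 4.3.3, with 1 coefficient per group over all 8 libraries, empirical Bayes with a trend and Benjamini-Hochberg adjustment over all of them. ± is the standard error of a log2 difference, and intervals are 95% intervals of that fit. Shares of paralogs were compared by exact permutation over libraries. Plots were made with Python 3.11.15 and matplotlib 3.10.9. Promoters are RefSeq windows of GRCm38.p6. Members and lists were chosen with earlier results of these data known. All members are named, with every library's value for the transduced genes, for members with an unadjusted p under 0.05, the 5 smallest p in each comparison and the most abundant paralogs, and up to 4 genes of each wider list by smallest p. Other members are given by range. Other pseudocounts, filters, scalings, a replicate block and left-out libraries were tried as alternatives. Depth is known only relative to other libraries, so no counting intervals are given.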

Additional observations from a re-analysis of the deposited data

How the results depend on the processing

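No member passed the adjusted threshold under any setting tried, nor did the difference of any member singled out by its p, or the members' median, change sign, apart from the median of AE+Meis2 against AE9a, which ran from -0.15 to 0.077 with 1 library left out and was positive without AE+Meis2 replicate 2. Leaving out 1 library gave medians of 0.095 to 0.30 in AE9a+Meis2 against AE9a (lowest without AE9a replicate 2) and of -0.41 to -0.088 in AE+Meis2 against AE9a+Meis2. Removing small RNA entries moved the median of all genes to -0.10, -0.18 and -0.27 in the 3 comparisons, and the members' median relative to it was 0.29, -0.36 and -0.13. With that setting 5 enzymes were higher without overlap in AE9a+Meis2 than in AE9a, and 1 after quantile normalization, where 8 were in the report.

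The number of all genes past the threshold changed more. In AE9a+Meis2 against AE9a it was 6, but 3 with a pseudocount of 5, 3 when AE9a+Meis2 replicate 3 and AE9a replicate 1 were left out together and 2 to 9 with 1 library left out. In AE+Meis2 against AE9a+Meis2 it was 5, but 12 without small RNA entries and 6 to 23 with 1 library left out (23 without AE+Meis2 replicate 3). In AE+Meis2 against AE9a it was 4, but 2 with a pseudocount of 5, 1 with no filter, 0 without small RNA entries, 2 when the third group was left out of the fit and 1 to 10 with 1 library left out. The cause was not tested. Where a fit leaves 1 AE9a library, that library is assumed to vary like the others.

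Replicate numbers are shared between groups. Correlations of same-numbered deviations from the group means ran from -0.025 to 0.133, and of differently numbered ones from -0.101 to 0.083. With 2 or 3 libraries in a group these deviations are tied to each other, so the check cannot decide whether the numbers pair the libraries. With the replicate block 2, 5 and 0 genes passed in the 3 comparisons, with 0 members, and the members' medians were 0.24, -0.28 and -0.078. Relative depth is rough: the ratio it rests on held 3.62% to 9.22% of the genes compared, and low members such as Eno2 and Car9 are the least certain.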
